A study of Homo sapiens with 12 samples.

Results

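The replication-dependent histone genes were taken as every gene whose symbol begins with HIST1H, HIST2H, HIST3H or HIST4H, and they made up 73 of the 27011 genes in the deposited count tables. They comprised 6 linker histone H1 genes and 67 core histone genes, of which 18 belong to H2A, 20 to H2B, 14 to H3 and 15 to H4. The H2A and H2B numbers include transcribed pseudogenes. Their mRNA and their ribosome footprints were compared in each library and between genotypes. The cells were HEK293T, a human embryonic kidney line, and the labels name 3 genotypes: WT, the wild type, 4EHP-null, which lacks 4EHP, and GIGYF1/2-null, labelled as lacking GIGYF1 and GIGYF2. All were harvested 24 h after plating in 15 cm dishes, with no treatment, and the sources used here do not say whether a null line is 1 clone. Libraries prepared from total RNA (RNA-seq, called mRNA below) were sequenced beside ribosome-protected fragments (Ribo-seq, called footprints). There were 2 libraries per genotype and assay and 12 in all. The series record calls them biological replicates, but nothing says that they came from separate cultures. A p-value here therefore reflects how far these samples vary among themselves, which may be technical.

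Core histones H2A, H2B, H3 and H4 form the protein spool around which DNA is wound, and linker histone H1 binds the DNA between spools. Replication-dependent histone genes are expressed mainly while DNA is copied, lie in clusters of many near-identical genes, and give the only known cellular mRNAs of animals that end in a stem-loop instead of a poly(A) tail. The stem-loop-binding protein SLBP binds that stem-loop and acts in the processing, translation and decay of the mRNA. Some of these genes also make polyadenylated transcripts in some cells, and a library made by selecting poly(A) tails holds little of the rest. The labels name a TruSeq RNA kit on total RNA and do not state whether poly(A) RNA was selected, so a footprint-to-mRNA ratio of these genes is not read here as a translation efficiency.

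By the RefSeq table matched to the symbols, 56 of the 73 genes lie on chromosome 6, 16 on chromosome 1 and 1 on chromosome 12. The 3 transcribed pseudogenes are HIST1H2APS1 in H2A and HIST2H2BA and HIST2H2BC in H2B. RefSeq (build GRCh38.p14) gave a promoter for 65 of them. The 120 bases before the transcription start are given here for genes on which the results turn: H4, H3 and H2A genes with shared reads, and the genes whose mRNA or footprints are followed by library. Capitals mark TATAAA (the TATA box), CCAAT or its reverse complement ATTGG, the octamer ATTTGCAT, and GGTCCG, a core of the H4 site II element.
HIST2H4A (chr1:149832537-149832656, + strand): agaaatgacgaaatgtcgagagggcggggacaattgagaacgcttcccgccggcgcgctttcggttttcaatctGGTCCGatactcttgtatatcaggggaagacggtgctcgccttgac
HIST2H4B (chr1:149861160-149861279, - strand): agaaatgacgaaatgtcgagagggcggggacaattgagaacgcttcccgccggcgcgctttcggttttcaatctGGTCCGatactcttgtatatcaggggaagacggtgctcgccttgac
HIST1H4J (chr6:27823972-27824091, + strand): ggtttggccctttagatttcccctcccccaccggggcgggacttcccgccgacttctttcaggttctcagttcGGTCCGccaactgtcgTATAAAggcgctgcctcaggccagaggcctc
HIST1H4K (chr6:27831561-27831680, - strand): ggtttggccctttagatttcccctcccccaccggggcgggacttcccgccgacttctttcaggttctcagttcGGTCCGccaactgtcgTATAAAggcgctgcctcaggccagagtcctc
HIST1H4E (chr6:26204490-26204609, + strand): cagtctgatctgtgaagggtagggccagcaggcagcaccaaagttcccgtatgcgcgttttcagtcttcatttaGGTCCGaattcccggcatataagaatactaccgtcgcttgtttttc
HIST2H3A (chr1:149852488-149852607, + strand): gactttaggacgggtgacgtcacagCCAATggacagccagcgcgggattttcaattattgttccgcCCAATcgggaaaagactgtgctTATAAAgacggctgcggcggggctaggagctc
HIST3H3 (chr1:228425361-228425480, - strand): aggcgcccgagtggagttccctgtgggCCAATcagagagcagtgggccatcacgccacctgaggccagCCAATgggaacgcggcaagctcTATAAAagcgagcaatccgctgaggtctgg
HIST2H2AA3 (chr1:149842751-149842870, - strand): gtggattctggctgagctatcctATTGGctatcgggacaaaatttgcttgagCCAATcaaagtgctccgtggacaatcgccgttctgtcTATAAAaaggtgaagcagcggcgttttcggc
HIST3H2A (chr1:228457874-228457993, - strand): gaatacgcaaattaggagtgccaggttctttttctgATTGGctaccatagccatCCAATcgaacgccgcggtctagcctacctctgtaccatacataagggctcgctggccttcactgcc
HIST1H2BK (chr6:27146859-27146978, - strand): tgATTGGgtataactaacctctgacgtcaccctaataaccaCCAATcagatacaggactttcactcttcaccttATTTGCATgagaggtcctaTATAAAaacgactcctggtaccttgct
HIST1H1C (chr6:26056471-26056590, - strand): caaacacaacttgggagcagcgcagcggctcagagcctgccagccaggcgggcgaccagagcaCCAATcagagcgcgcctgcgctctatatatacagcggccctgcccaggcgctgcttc
The HIST2H4A and HIST2H4B promoters were identical over 300 bases, and those of HIST1H4J and HIST1H4K in 295 of 300 (98.3%). HIST2H3A matched HIST2H3C over 296 bases and HIST2H2AA3 matched HIST2H2AA4 over 299, once the windows were shifted by 4 and 1 bases. Searched on both strands of the 300-base windows (250 bases before and 50 after the start), CCAAT occurred in every H1, H2A, H2B and H3 promoter and in 3 of 13 H4 promoters, against 39.7% of 27305 genes. The octamer occurred in 11 of 16 H2A and 14 of 18 H2B promoters but in 0 of 6 H1 and 0 of 13 H4 promoters, against 2.19% of all genes. GGTCCG was in 12 of 13 H4 promoters (13.4% of all genes) and TATAAA in 44 of the 65 (14.0% of all genes). These letters describe the windows and were not tested as binding sites.

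The copies mattered for the counts. HIST2H3A and HIST2H3C had identical counts in all 12 libraries, with 343699 footprints each over the 6 Ribo-seq libraries and 0 mRNA counts. HIST2H4A and HIST2H4B were likewise identical (303174 footprints, 0 mRNA counts), as were HIST2H2AA3 and HIST2H2AA4 (267212 footprints, 2 mRNA counts). HIST1H4J and HIST1H4K differed by 1 footprint (33946 against 33945) but had 26 and 0 mRNA counts. Their levels are therefore uncertain, and sums that take the 3 identical sets once, over 70 genes, are given where they matter. Among all genes, 53 averaged over 100 footprints with counts identical to another gene's in the 6 Ribo-seq libraries. Of these 53, 29 averaged under 1 RNA-seq count, and 6 of the 29 were histone genes. Few mRNA counts beside shared footprints were thus also seen outside the histone genes, and the cause was not tested.

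Depth ran from 26143118 to 38175701 counts in RNA-seq and from 6536493 to 10816080 in Ribo-seq. Of 8 HEK293T marker genes, 8 averaged at least 1 CPM (counts relative to the library total, after TMM scaling within an assay). EIF4E2, which encodes 4EHP, was at 123 and 123 CPM in WT mRNA and 51.0 and 46.7 in 4EHP-null mRNA. GIGYF1 was at 41.2 and 40.8 CPM in WT and 22.4 and 26.0 in GIGYF1/2-null mRNA, while GIGYF2 was at 81.2 and 66.0 in WT and 96.6 and 81.8 in the libraries labelled GIGYF1/2-null. GIGYF2 footprints were at 90.7 and 63.8 CPM in WT and 81.5 and 51.6 in GIGYF1/2-null, a change of -0.21 ± 0.22 (edgeR, adjusted p = 0.671). GIGYF1 footprints were lower there, by -1.73 ± 0.29 (edgeR, adjusted p = 0.0120). GIGYF2 was thus not called lower than WT in either assay. Neither assay measures protein, so the labelled loss of GIGYF2 cannot be judged here. GIGYF1/2-null below means the libraries so labelled. One RNA-seq library, 4EHP-null replicate 2, stood apart in RNAs that lack a poly(A) tail. Summed over 22 other such RNAs it held 429 CPM, against 16.4 to 50.4 in the other 5 libraries. The RNase MRP RNA RMRP was at 186 CPM there and 0.428 to 14.0 elsewhere, and the RNase P RNA RPPH1 at 204 against 0.745 to 15.3, with GIGYF1/2-null replicate 2 next highest for both.

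Histone mRNA was scarce in the RNA-seq libraries, which need not reflect its level in the cells, since the poly(A) state of the libraries is not known. The 73 genes together took 3674 and 4647 counts in the WT RNA-seq libraries, 3259 and 6174 in 4EHP-null and 5944 and 6861 in GIGYF1/2-null, which was 0.0101% (95% Wilson interval 0.00976% to 0.0105%) of the 4EHP-null replicate 1 library to 0.0236% (0.0230% to 0.0242%) of 4EHP-null replicate 2. Intervals cover counting error only. In summed CPM this was 124 and 125 in WT, 99.6 and 235 in 4EHP-null, and 188 and 201 in GIGYF1/2-null (replicates 1 and 2). The GIGYF1/2-null libraries lay above both WT libraries, and the 4EHP-null libraries lay on either side of WT. A total of 16 genes had 0 mRNA counts in all 6 libraries, and 13 had at least 10 counts in all 6.

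HIST1H2BK, an H2B gene, took more histone mRNA counts than any other histone gene in each RNA-seq library. It took 65.9% and 67.9% of histone mRNA counts in WT, 67.7% and 30.7% in 4EHP-null, and 65.5% and 61.7% in GIGYF1/2-null. The interval of the 30.7% in 4EHP-null replicate 2, 29.6% to 31.9%, lies below those of the other 5 libraries, which span 60.5% to 69.3%. Per kilobase of the deposited gene length its mean mRNA level over 6 libraries was 104 CPM. The next in the named genes were HIST1H1C, a linker histone gene, at 22.5 and HIST3H2A, an H2A gene outside the main clusters, at 16.9. All 3 belong to 9 genes described as making polyadenylated transcripts in some cells (with HIST1H2AC, HIST1H2BC, HIST1H2BD, HIST1H2BJ, HIST2H2BE and HIST4H4). Those 9 together held 114 and 116 CPM of mRNA in WT, 90.7 and 135 in 4EHP-null, and 175 and 180 in GIGYF1/2-null. The other 64 genes held 10.1 and 8.90 CPM in WT, 8.83 and 100 in 4EHP-null, and 13.3 and 20.7 in GIGYF1/2-null.

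The highest H3 and H4 genes in mRNA per kilobase among those named were HIST1H4C at 3.36 CPM and HIST1H3H at 3.01, followed by HIST1H4E at 2.52, HIST1H4H at 2.19, HIST1H3B at 2.13 and HIST2H3D at 1.30. HIST1H2BD was at 7.39, HIST1H2AC at 4.64, HIST1H2AH at 3.85, HIST1H1E at 2.87, HIST2H2BE at 1.94 and HIST1H1D at 0.559. Means over 6 libraries hide 1 library in several of these: HIST1H4C was at 5.64 CPM in 4EHP-null replicate 2 and at 0.153 to 0.791 in the other 5.

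In footprints the same genes were abundant. They took 507272 and 866872 counts in WT (7.28% and 8.17% of the library), 397688 and 638496 in 4EHP-null (6.08% and 8.71%), and 747328 and 999252 in GIGYF1/2-null (8.97% and 9.24%), with Wilson intervals from 6.07% to 6.10% for the lowest and 9.22% to 9.26% for the highest. With the identical copies counted once, the sums were 57455 and 64110.2 CPM in WT, 49110.5 and 68151 in 4EHP-null, and 69927 and 68615 in GIGYF1/2-null. Of the 73 genes, 67 had at least 10 footprints in all 6 libraries and none was at 0 in all 6. Ranked by footprints per kilobase among all genes, 34 were in the top 100 and 61 in the top 1000. By mRNA per kilobase HIST1H2BK alone was in the top 1000. Identical copies each took a place in the footprint ranks, HIST2H4A and HIST2H4B both at 4, as did the pseudogene HIST2H2BA at 14.

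Levels per kilobase in footprints were led by H4 and H3 copies. HIST2H4A and HIST2H4B, each credited with the same reads, averaged 7398 CPM per kilobase over the 6 libraries. HIST2H3A and HIST2H3C averaged 6578, HIST2H2AA3 and HIST2H2AA4 4833, and HIST2H3D, a single H3 gene of the same cluster, 4306. Among the other genes named, HIST1H3B was at 3368, HIST2H2AC at 3293, HIST1H1E at 3099, HIST1H1C at 3084, HIST1H2BK at 2646, HIST2H2BF at 2289, HIST1H4C at 1902, HIST2H2BE at 971 and HIST1H1D at 668. The order differed from that in mRNA, where HIST1H2BK led and the H3 and H4 copies had no counts.

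The footprint makeup varied little between libraries. H1 genes took 6.10% to 7.04% of histone footprints, H2A genes 21.7% to 24.1%, H2B genes 24.8% to 26.2%, H3 genes 23.7% to 24.5% and H4 genes 18.8% to 21.6%, as counts not corrected for length. These shares count both copies of each identical H2A, H3 and H4 set. With copies once, the WT means were 4866 CPM in H1, 12501 in H2A, 20362 in H2B, 12300 in H3 and 10754 in H4. H2B was then the highest class. Over the 67 genes with at least 10 footprints in each library, Pearson's r of log2 CPM between libraries was 0.992 to 0.999 in 15 pairs. In mRNA, over the 13 genes with at least 10 counts in each library, it was 0.716 to 0.982. The points in each case are genes measured in the same libraries, and r is given as a description.

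Testis-limited members showed footprints at very different levels. HIST3H3, an H3 gene known from testis, had 225 and 190 footprint CPM in WT, 133 and 148 in 4EHP-null, and 301 and 196 in GIGYF1/2-null, with 0 mRNA counts in all 6 libraries. HIST1H1T, the testis linker histone, stood at 1.09 to 1.70 footprint CPM. HIST1H2AA had 0 footprints in 5 of 6 libraries, and HIST1H2BA had at most 0.145 CPM. Only HIST3H3 and HIST1H1T of these 4 passed the filter in footprints, and neither was called against WT. Of 4 testis germ cell markers, 3 were at 0 in all 6 RNA-seq libraries and DDX4 averaged 0.00974 CPM. HIST4H4, an H4 gene on its own on chromosome 12, had 140 to 227 footprint CPM and at most 1.18 CPM of mRNA.

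**Figure D1:**
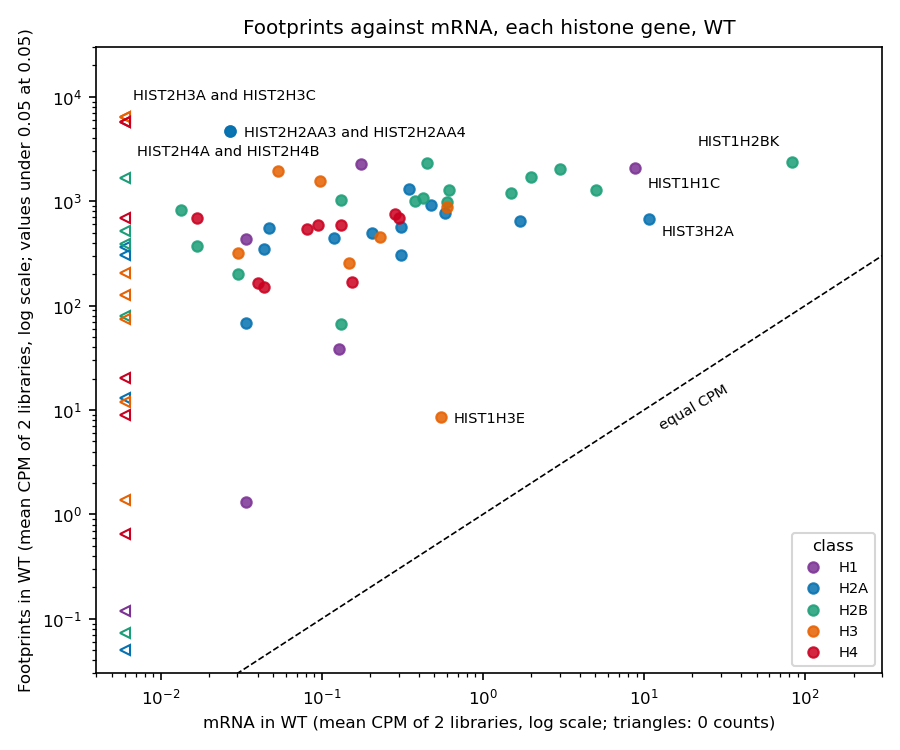
Footprint level against mRNA level of each of the 73 genes in WT (mean CPM of 2 libraries, both axes logarithmic, colours by histone class), where triangles at the left edge mark genes with 0 mRNA counts and footprint values under 0.05 CPM are drawn at 0.05. The points with mRNA counts lie above the line of equal CPM, HIST1H3E nearest to it and HIST1H2BK farthest right.

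Footprints were compared with mRNA within each genotype, which asks how far the 2 assays differ in what they record of these genes. In WT, HIST1H2BK had 28.2 times as many footprint CPM as mRNA CPM, HIST3H2A 62.9 times and HIST1H1C 238 times. The lowest ratio among the genes with mRNA counts in WT was 15.6, in HIST1H3E, an H3 gene with 8.39 and 8.79 footprint CPM. With edgeR's quasi-likelihood test, 70 of 70 genes tested were higher in footprints in WT, in 4EHP-null and in GIGYF1/2-null, where 36.3%, 36.6% and 37.3% of all 17074 genes were higher. Of all 73 genes, 23, 24 and 21 were at 0 mRNA counts in WT, 4EHP-null and GIGYF1/2-null. A floor of 3 counts per library was therefore set on mRNA for the 70, which gives lower bounds. The median was then at least 11.14 on the log2 scale in WT, 8.97 in 4EHP-null and 10.67 in GIGYF1/2-null, and 63 of the 70 were over 100-fold in each. The median of the 9 genes described as polyadenylated was 8.57, 7.68 and 8.02, and that of the other 61 was 11.36, 9.14 and 11.05. The fitted medians of the 70 were 12.07, 9.79 and 11.59, beside 0.02, -0.01 and 0.04 over all genes. The lower 4EHP-null values rest on RNA-seq replicate 2: without it the fitted median was 12.14, and without replicate 1 it was 8.92. With the floor and replicate 1 alone, the 4EHP-null median was at least 11.03 over the 70 genes, 8.89 over the 9 and 11.36 over the 61. Scaling by library totals moved the all-gene median in WT to -0.40 and the split of all genes from 6191 higher and 5714 lower to 4292 and 8173, with all 70 histone genes still higher.

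Some of the other genes differed between the assays as much. In WT, 52 of the 70 histone genes lay above the 99th percentile of the other genes' fitted footprint-to-mRNA change. In 4EHP-null 22 did, and in GIGYF1/2-null 42. None lay above every other gene in any genotype. The lowest of the 70 lay at percentile 89.7 in WT, 89.6 in 4EHP-null and 89.3 in GIGYF1/2-null. As a ratio of sums, the 73 genes had 590 and 656 times as many footprint as mRNA CPM in the WT replicates, 628 and 370 in 4EHP-null and 481 and 440 in GIGYF1/2-null. In 4EHP-null the replicates differed most, the lower ratio being that with RNA-seq replicate 2. Libraries of the 2 assays were set side by side here by replicate number only. On the log2 scale the ratio of the means was 9.28, 8.80 and 8.85.

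**Figure D2:**
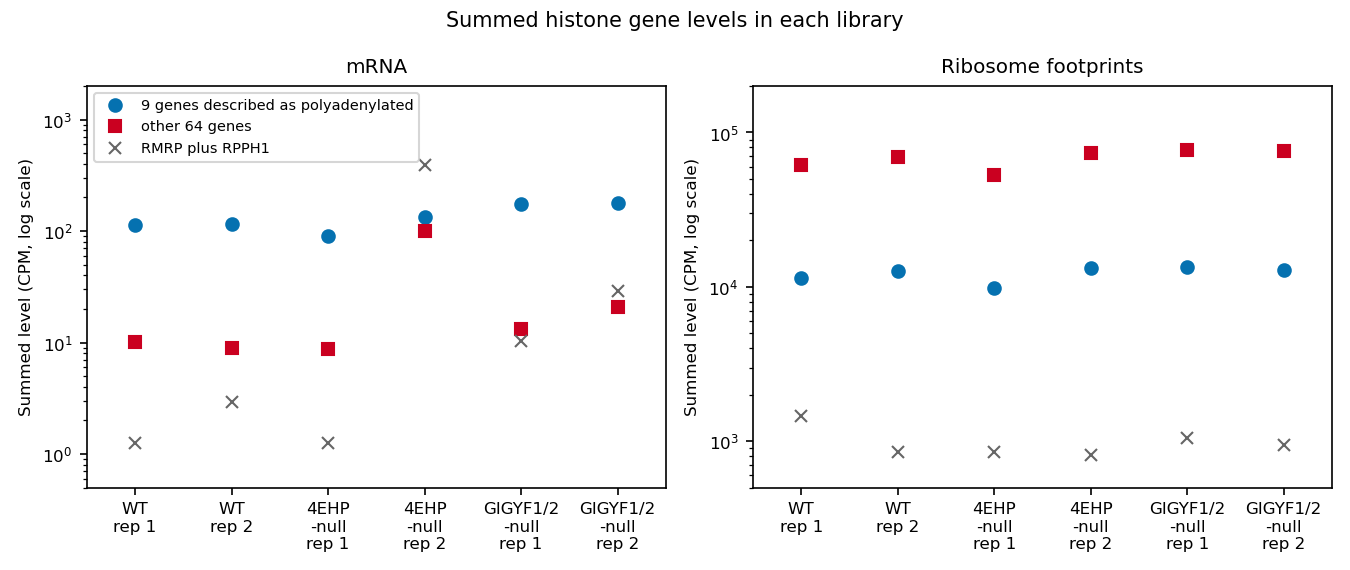
Summed CPM (logarithmic axis) of the 9 genes described as polyadenylated, the other 64 histone genes, and RMRP plus RPPH1 in each RNA-seq library (left) and Ribo-seq library (right), 1 point per library. In mRNA the other 64 genes are at 100 CPM in 4EHP-null replicate 2 and at 8.83 to 20.7 in the rest, and RMRP plus RPPH1 are highest in the same library.

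The comparison of 4EHP-null with WT asks which histone mRNAs change when 4EHP, a cap-binding translational repressor, is lost. The 2 null libraries disagreed. HIST1H1E, a linker histone gene, was at 0.136 and 0.215 CPM in WT and at 0.306 and 11.1 in 4EHP-null. HIST1H3B, an H3 gene, was at 0.169 and 0.0269 in WT and 0.275 and 4.46 in 4EHP-null. In both genes the high value is that of replicate 2 alone.

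HIST1H4E went from 0.102 and 0.161 CPM in WT to 0.275 and 4.49 in 4EHP-null, and HIST1H4D from 0.136 and 0.0538 to 0.183 and 2.97. Both are H4 genes and both again peaked in replicate 2. The groups did not overlap in any of the 4 genes, but these were picked by smallest adjusted p, which favours such genes. The replicate 1 values rest on 10, 9, 9 and 6 counts. In edgeR these were higher by 4.94 ± 1.24 (log2 fold change ± standard error, adjusted p = 0.0204), 4.61 ± 1.20 (0.0238), 4.08 ± 1.04 (0.0222) and 4.02 ± 1.07 (0.0269). Without 4EHP-null replicate 2 they were 0.76, 1.56, 1.01 and 0.99, with adjusted p from 0.509 to 0.709.

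Of the 73 genes, 31 passed the filter on low counts. The filter ran over all 6 RNA-seq libraries, so a gene low in WT could pass through null libraries where it was high. The calls and the median therefore describe a set chosen in part by those libraries. With edgeR 9 were called higher and 1 lower in 4EHP-null, where 6.47% of all 15637 genes were called higher and 6.63% lower, and the median was 2.18 beside -0.00 over all genes. By class, those higher were 1 of 2 H1 genes tested, 3 of 9 H2A, 0 of 11 H2B, 3 of 5 H3 and 2 of 4 H4. The other 5 were HIST1H2AH (3.09), HIST1H2AI (2.87), HIST1H2AM (2.83), HIST1H3H (2.18) and HIST2H3D (4.42). Of the 9 genes described as polyadenylated, 8 were tested, with 0 higher and 1 lower in edgeR. In edgeR with only the WT and 4EHP-null libraries filtered and fitted, 23 histone genes were tested and the median was 1.47. Of these, 8 were called higher and 1 lower, where 1282 and 1258 of 15252 genes were. Over all 31, DESeq2 called 6 higher and 1 lower, where it called 992 of 15637 genes higher and 1017 lower. Without 4EHP-null replicate 2 the higher calls were lost and the median was -0.19. Without 4EHP-null replicate 1 the median was 3.47 over 43 genes. It was 2.75 without WT replicate 1 and 2.58 without WT replicate 2, and the higher calls were lost without either WT library. Of the 57 genes with any mRNA count, 41 were highest in 4EHP-null replicate 2, which was not counted over all genes. Of the 22 other RNAs without a poly(A) tail, 17 were also highest in that library, while SNORD17, SCARNA12, SCARNA13 and SCARNA17 were not and RNY4 had 0 counts. RMRP and RPPH1 held 186 and 204 of the 429 CPM. The part of these RNAs in the result was not tested.

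**Figure D3:**
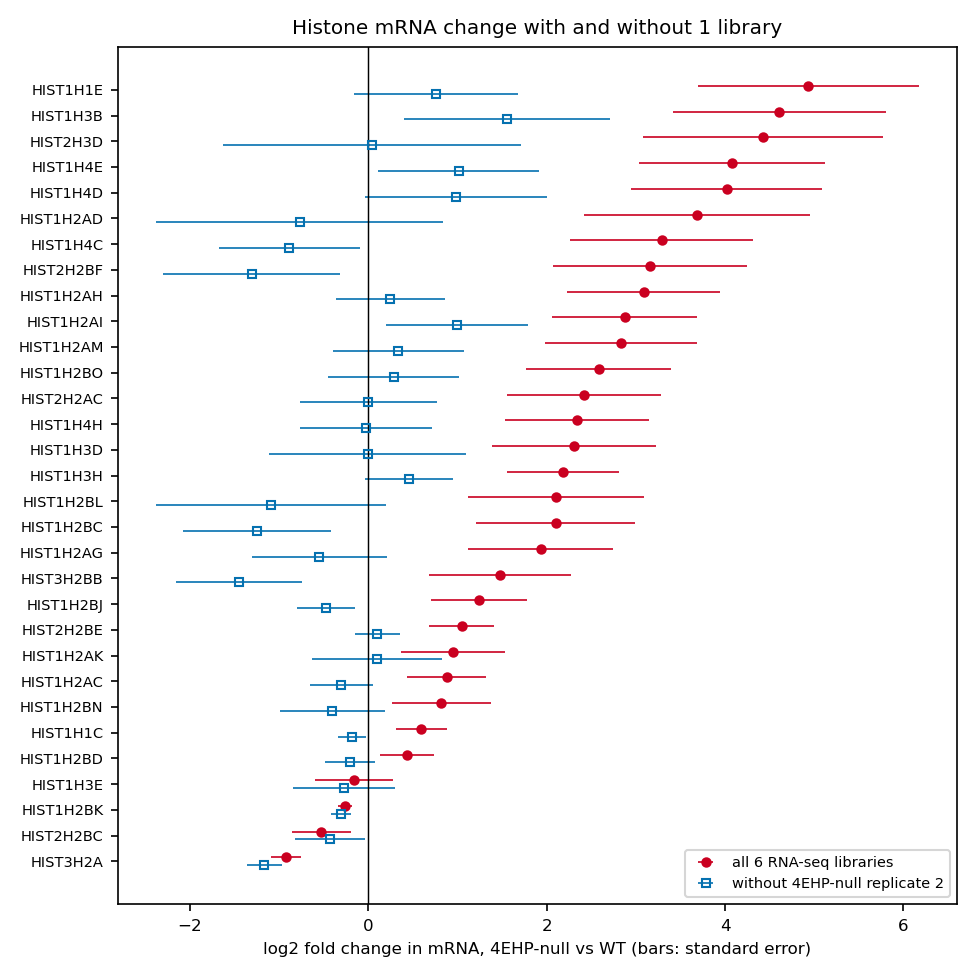
Log2 fold change in mRNA of the 31 tested genes, 4EHP-null against WT, with all 6 RNA-seq libraries (filled circles) and without 4EHP-null replicate 2 (open squares), with bars of 1 standard error. Without that library 13 of 31 values are above 0 and 18 below, and HIST3H2A is below 0 in both, at -0.92 and -1.17.

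HIST3H2A was the gene called lower. Its mRNA was at 10.6 and 10.8 CPM in WT, 4.77 and 6.59 in 4EHP-null, and 7.94 and 9.53 in GIGYF1/2-null. The 4EHP-null libraries lay below all the others. The change from WT was -0.92 ± 0.17 (edgeR, adjusted p = 0.00383), and it was -0.70 to -1.17 with each library left out in turn, called every time. HIST1H2BK, the histone gene with the most mRNA counts, was at 82.0 and 84.8 CPM in WT and 67.4 and 72.3 in 4EHP-null. The groups did not overlap, and the change was -0.26 ± 0.08 (edgeR, adjusted p = 0.0501). In summed CPM of the 73 genes, 4EHP-null averaged 167 ± 95.9 (SD, n = 2) against 125 ± 0.312 in WT, a difference within the spread of the 4EHP-null libraries.

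In GIGYF1/2-null cells, labelled as lacking the scaffold proteins that bind 4EHP, HIST1H1C and HIST1H2BK mRNA rose. HIST1H1C was at 8.57 and 9.06 CPM in WT, 7.76 and 19.2 in 4EHP-null, and 26.5 and 27.6 in GIGYF1/2-null. Both GIGYF1/2-null values lay above the 4 others. The change from WT was 1.62 ± 0.28 (edgeR, adjusted p = 0.00232). HIST1H2BK was at 123 and 124 CPM in GIGYF1/2-null, also above the 4 other libraries, and its change was 0.57 ± 0.08 (adjusted p = 6.44e-04). Both calls held in DESeq2 and with each library left out in turn.

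These were the 2 genes called of 31, none being lower, where 5.2% of all genes were called higher and 6.75% lower. Of the 31, 29 had a positive change, with a median of 0.76 beside 0.01 over all genes. The median was 1.19 without GIGYF1/2-null replicate 1 and 0.49 without replicate 2, over 43 genes each. In edgeR with only the WT and GIGYF1/2-null libraries filtered and fitted, 25 histone genes were tested, with a median of 0.71. Of these, 4 were called higher, where 796 of 15480 genes were. HIST1H1C and HIST1H2BK belong to the 9 genes described as polyadenylated, which averaged 177 CPM in sum in GIGYF1/2-null and 115 in WT. HIST1H2BK alone averaged 123 in GIGYF1/2-null and 83.4 in WT, so that sum mainly follows 1 gene. The H3 genes summed to 2.75 and 3.24 CPM against 1.86 and 1.56 in WT, and the H4 genes to 2.12 and 2.95 against 0.881 and 1.43, neither pair overlapping. The H2A genes, at 13.8 and 18.3 CPM against 15.2 and 14.7, did overlap. RMRP and RPPH1 were also higher in both GIGYF1/2-null libraries than in WT, at 4.49 and 14.0 CPM against 0.508 and 1.24 for RMRP, and their part in the result was not tested.

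Between the null lines, 3 of the 31 genes were higher in GIGYF1/2-null mRNA and 2 lower, where 11.4% of all genes were called higher and 13.0% lower. Those higher were HIST1H2BK (0.82 ± 0.08, adjusted p = 1.85e-05), HIST1H1C (1.02 ± 0.27, 0.0155) and HIST3H2A (0.63 ± 0.17, 0.0178), all in edgeR. In edgeR the first 2 were called with each library left out, but DESeq2 did not call HIST1H1C (1.00 ± 0.52, adjusted p = 0.157). HIST3H2A was not called without 4EHP-null replicate 1 or GIGYF1/2-null replicate 2. Those lower were HIST1H4E (-2.79 ± 0.91, 0.0401) and HIST1H2AH, an H2A gene (-2.35 ± 0.80, 0.0496). HIST1H2AH was at 0.581 and 7.96 CPM in 4EHP-null and 0.570 and 1.05 in GIGYF1/2-null, so the groups overlapped. Without 4EHP-null replicate 2 both turned positive, at 0.26 and 0.48, and lost their calls. Neither was called without either GIGYF1/2-null library or in DESeq2 (adjusted p = 0.149 and 0.199). These comparisons share their libraries with those against WT.

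**Figure D4:**
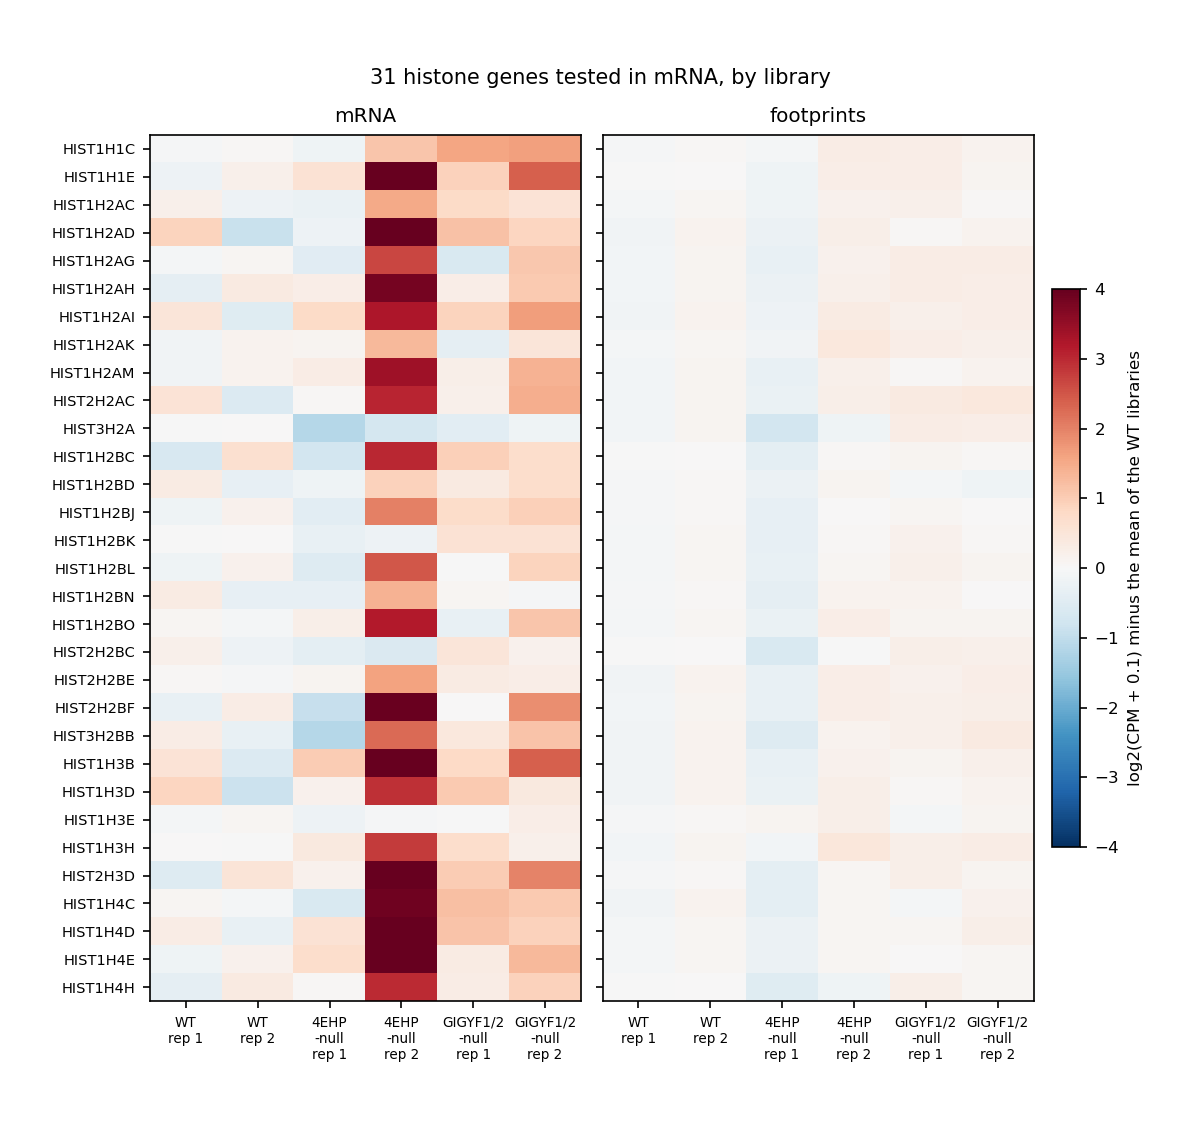
Level of the 31 genes tested in mRNA, in each library, as log2(CPM + 0.1) minus the mean of the WT libraries of the same assay (colour scale cut at -4 and 4). The column of 4EHP-null replicate 2 is red for most genes in mRNA (left) and pale in footprints (right), while HIST3H2A is blue in both 4EHP-null mRNA columns.

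Summed footprints of 4EHP-null and GIGYF1/2-null cells had log2 ratios to WT of -0.06 and 0.20, beside 0.42 and 0.64 in mRNA. By library the sums were 73402 and 81909 CPM in WT, 62545 and 86889.9 in 4EHP-null, and 90515 and 88258 in GIGYF1/2-null. The 4EHP-null replicates lay on either side of WT, and both GIGYF1/2-null libraries lay above all 4 others. Means were 77656 ± 6015 in WT, 74718 ± 17215 in 4EHP-null and 89387 ± 1595 in GIGYF1/2-null (SD, n = 2). Of 73 genes, 32 were highest in 4EHP-null replicate 2, 23 and 13 in the GIGYF1/2-null libraries and 0 in 4EHP-null replicate 1. The highest library was not counted over all genes.

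Footprints of 2 of the genes with high mRNA in 4EHP-null replicate 2 follow. HIST1H1E had 2260.1 and 2324 footprint CPM in WT, 2021 and 2781 in 4EHP-null, and 2761 and 2448 in GIGYF1/2-null. HIST1H3B had 1412 and 1692 in WT, 1251 and 1725 in 4EHP-null, and 1667 and 1791 in GIGYF1/2-null. HIST1H1E was highest in 4EHP-null replicate 2 in footprints also, at 2781 against 2761 in the next library, and HIST1H3B was not. In edgeR the changes in 4EHP-null were 0.07 ± 0.18 and -0.06 ± 0.18 (adjusted p = 0.879 and 0.894).

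With edgeR 0 of 69 histone genes tested were called in 4EHP-null footprints, where 3.04% of all 14722 genes were called in either direction. DESeq2 also called 0. In edgeR 2 genes had an unadjusted p under 0.05, HIST3H3 (-0.56 ± 0.19, adjusted p = 0.137) and HIST3H2A (-0.43 ± 0.18, adjusted p = 0.228). The share of all genes under that threshold was not counted. The median over the 69 was -0.04 beside -0.00 over all genes. HIST3H2A had 627 and 721 footprint CPM in WT, 404 and 596 in 4EHP-null, and 821 and 800 in GIGYF1/2-null. Its 4EHP-null values were the lowest of the 6, the same order as in its mRNA between WT and 4EHP-null.

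In GIGYF1/2-null footprints 0 of 69 were called with edgeR, where 2.09% of all genes were called. An unadjusted p under 0.05 was seen in 3, and the share of all genes under it was not counted. HIST1H1D, a linker histone gene, came nearest, with 409 and 467 CPM in WT, 371 and 486 in 4EHP-null, and 708 and 675 in GIGYF1/2-null. The groups did not overlap, and the change from WT was 0.66 ± 0.16 (edgeR, adjusted p = 0.0556). DESeq2 called HIST1H1D (adjusted p = 0.00802) as 1 of 67 histone genes it tested, where it called 307 of 13294 genes. Its mRNA was at 0.0678 and 0 CPM in WT and 0.190 and 0.292 in GIGYF1/2-null, too low to be tested. HIST1H1C footprints were at 2030.1 and 2164 CPM in WT and 2519 and 2310 in GIGYF1/2-null, a change of 0.20 ± 0.17 (adjusted p = 0.575). HIST1H2BK footprints changed by 0.11 ± 0.17 (adjusted p = 0.783). The median over the 69 was 0.16, with 58 positive, beside 0.00 over all genes.

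Between the null lines 4 of the 69 genes were higher in GIGYF1/2-null footprints and 0 lower, where 3.98% of all genes were called higher and 6.8% lower. They were HIST3H3 (0.82 ± 0.19, adjusted p = 0.0171), HIST1H1D (0.69 ± 0.16, 0.0178), HIST3H2A (0.70 ± 0.18, 0.0313) and HIST1H3C, an H3 gene (0.56 ± 0.15, 0.0346), all in edgeR. HIST1H3C had 55.4 and 72.9 footprint CPM in 4EHP-null, 94.6 and 94.7 in GIGYF1/2-null, and 74.2 and 74.4 in WT. In all 4 genes, named because they were called, the null lines did not overlap. Without 4EHP-null Ribo-seq replicate 1 none of the 4 was called, their changes being 0.37 to 0.75 with adjusted p from 0.144 to 0.268. Calls were also lost without 4EHP-null replicate 2 for HIST3H3 (adjusted p = 0.0730), without GIGYF1/2-null replicate 1 for HIST3H3 (0.0951), HIST1H3C (0.0677) and HIST3H2A (0.0553), and without GIGYF1/2-null replicate 2 for HIST1H3C (0.0743). DESeq2 called 8 genes higher, these 4 among them, where it called 319 of 12438 genes higher.

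**Figure D5:**
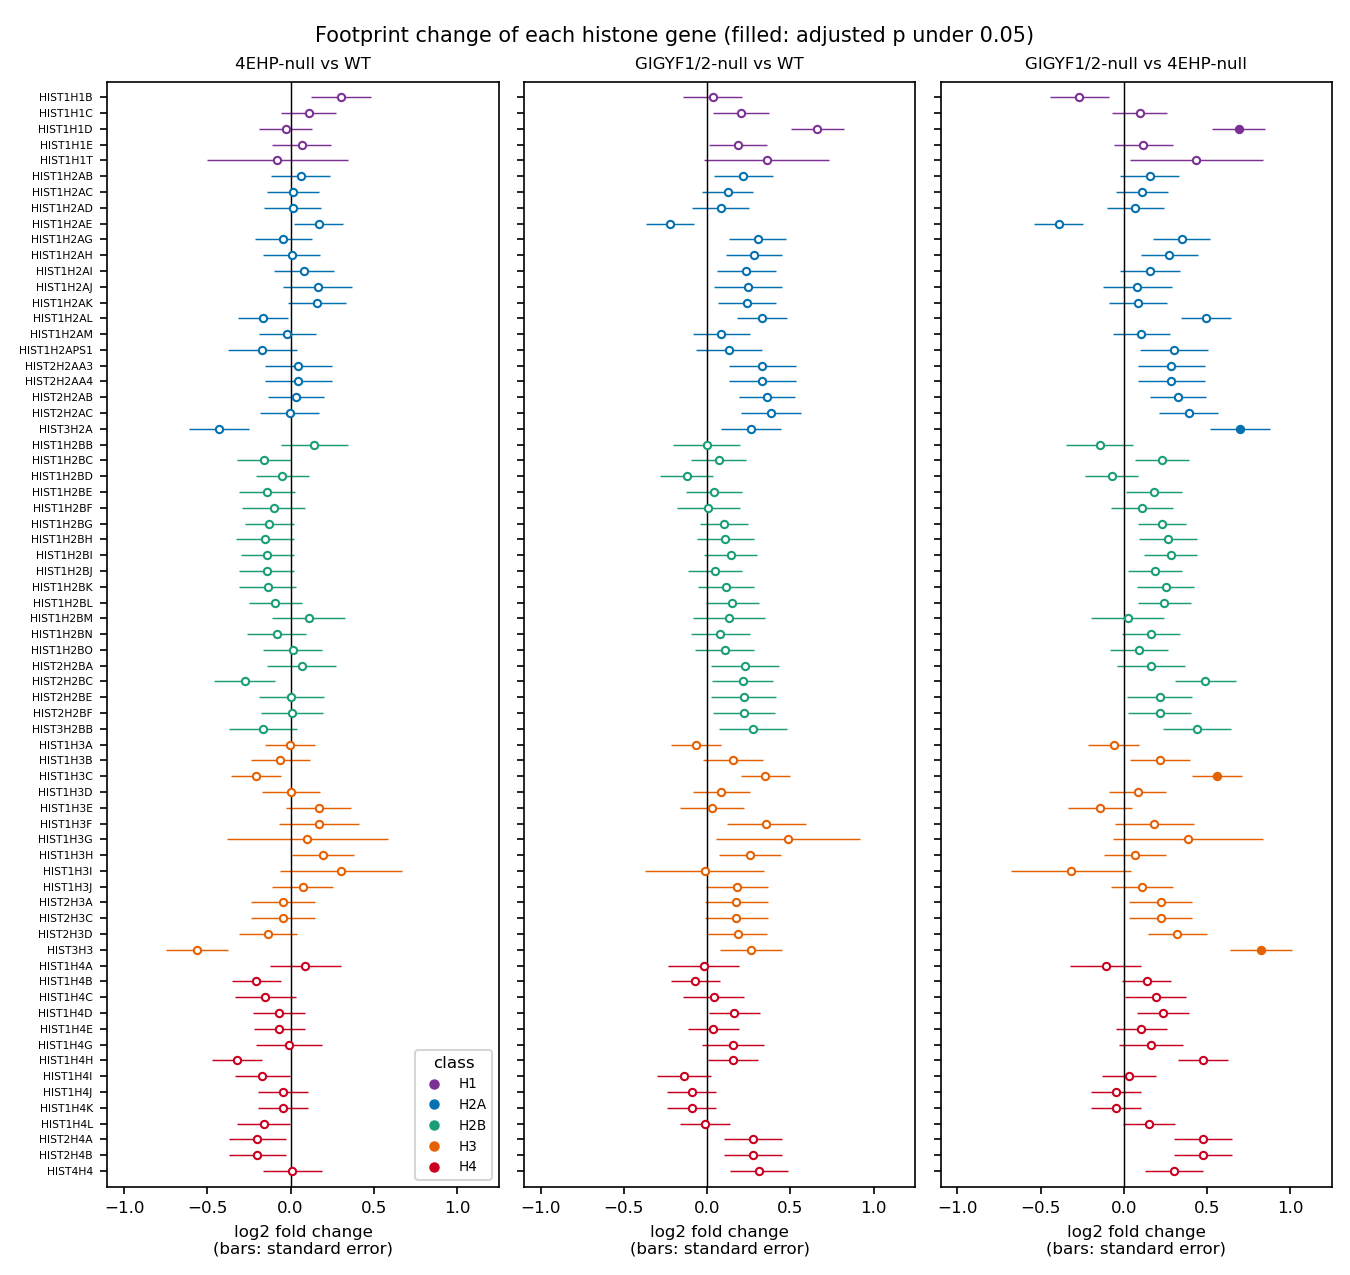
Log2 fold change in footprints of the 69 tested genes in the 3 comparisons, coloured by class, with bars of 1 standard error and filled points at an adjusted p under 0.05. No point is filled in the comparisons with WT, and 4 are filled between the null lines: HIST1H1D, HIST3H2A, HIST1H3C and HIST3H3.

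The change in footprints minus the change in mRNA, the usual measure of translation efficiency, was fitted over 12 libraries for the 31 genes that passed the filter in both assays. With edgeR 0 of 31 were called in 4EHP-null, in GIGYF1/2-null or between them, where 0.0981%, 0.0453% and 0.181% of 13257 genes were called, and DESeq2 also called 0 in each. At an unadjusted p under 0.05 in edgeR there were 21, 3 and 15. The share of all genes under that threshold was not counted, so these numbers have no background beside them. The medians were -2.17, -0.64 and 1.57, beside -0.02, -0.01 and 0.01 over all genes. Without 4EHP-null RNA-seq replicate 2 the first median was 0.17, with 1 gene at an unadjusted p under 0.05, and the third was -0.68. HIST1H1C, whose mRNA rose in GIGYF1/2-null cells, had a difference there of -1.40 ± 0.37 (edgeR, unadjusted p = 0.0018, adjusted p = 0.463).

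The authors' deposited table for 4EHP-null RNA-seq lists 34 of these genes, 24 called higher and 2 lower (HIST3H2A and HIST1H2BK), among 19.9% of 11268 genes called. The authors' deposited table for GIGYF1/2-null RNA-seq calls 2 higher, among 17.6% of genes. In the authors' deposited tables for Ribo-seq 0 of 70 are called in 4EHP-null, and 1 in GIGYF1/2-null, HIST1H1D (0.69, adjusted p = 0.0018). The authors' deposited tables of translation efficiency call 17 of 34 lower in 4EHP-null and 3 in GIGYF1/2-null (HIST1H1C at -1.39, HIST1H1E at -2.09 and HIST1H3B at -2.30), where 0.508% and 0.152% of genes are called. These are the same libraries, so the 17 include 4EHP-null replicate 2.

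SLBP, which binds the stem-loop of histone mRNA, was at 141 and 137 CPM of mRNA in WT, 153 and 149.6 in 4EHP-null, and 136 and 130.2 in GIGYF1/2-null. Its footprints were at 91.2 and 102 CPM in WT, 102 and 102 in 4EHP-null, and 97.6 and 92.3 in GIGYF1/2-null. Its mRNA change was 0.12 ± 0.07 in 4EHP-null (edgeR, adjusted p = 0.324) and -0.06 ± 0.07 in GIGYF1/2-null (adjusted p = 0.652), and its footprint change 0.08 (0.799) and -0.02 (0.947).

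The counts of called genes in the lists that follow stand beside shares over all genes of 6.47% higher and 6.63% lower in 4EHP-null mRNA and 5.2% and 6.75% in GIGYF1/2-null mRNA. In footprints the shares in either direction were 3.04% and 2.09%. Genes that make the histone mRNA end, among 19 measured, showed 0 higher and 1 lower in 4EHP-null mRNA, the cleavage factor CSTF2 (-0.36), a call lost without 4EHP-null replicate 2. In GIGYF1/2-null mRNA 0 were higher and 2 lower, the nuclease CPSF3 (-0.81) and SRRT (-0.48), and CPSF3 was also lower in footprints (-0.97). Of 11 genes of the histone locus body, where histone genes are transcribed, CASP8AP2 was higher in 4EHP-null mRNA (0.51, not called without replicate 2) and YY1AP1 in GIGYF1/2-null mRNA (0.32), and none was lower. Of 21 genes of histone mRNA translation and decay, PNRC2 was lower in 4EHP-null mRNA (-0.46, not called without replicate 2), and 3 were lower in GIGYF1/2-null mRNA, among them the exonuclease ERI1 (-0.72) and the helicase UPF1 (-0.48). In footprints 0 of the 11 and 0 of the 21 were called with edgeR in either null line against WT.

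Among 25 histone chaperone and import genes, 4 were higher and 2 lower in 4EHP-null mRNA, such as MCM2 (0.85), ATRX (0.79), DNAJC9 (-0.49) and ASF1B (-0.40), and 1 and 1 without replicate 2. In GIGYF1/2-null mRNA 0 were higher and 5 lower, with ASF1B at -0.47 and ASF1A at -0.42. Footprints were called for TONSL (0.77) and DNAJC9 (-0.63) in 4EHP-null and for MCM2 (-0.99) in GIGYF1/2-null.

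Of the replication-independent histone genes, which make polyadenylated mRNA, 11 were tested in mRNA. In 4EHP-null mRNA 1 was higher, H1F0 (0.35), and 4 were lower, with H3F3A at -0.58 and H2AFY2 at -0.51, and 0 and 3 without replicate 2. In GIGYF1/2-null mRNA H2AFJ (0.89) and H1F0 (0.37) were higher and H2AFV lower (-0.27). In footprints H2AFY2 was lower in 4EHP-null (-0.93) and 0 of 12 were called in GIGYF1/2-null.

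Histone mRNA accumulates while DNA is copied, and 45 genes of DNA replication were measured as its companions. In 4EHP-null mRNA 6 were higher, MCM2 and POLA1 (0.61) leading, and 2 without replicate 2, and POLA1 was higher in footprints (1.01). In GIGYF1/2-null mRNA 0 were higher and 8 lower, with ORC1 at -0.63 and POLA2 at -0.47, and in footprints ORC1 (-0.81) and MCM2 (-0.99) were lower. Between the null lines 2 were higher and 22 lower in GIGYF1/2-null mRNA, where 11.4% and 13.0% of all genes were, and 1 and 17 without 4EHP-null replicate 2. In footprints 0 were higher and 16 lower, beside 3.98% and 6.8% of all genes. The median change in GIGYF1/2-null mRNA against WT was -0.15 for these 45 genes, while that of the 31 histone genes was 0.76.

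Among the 22 other RNAs without a poly(A) tail, 11 passed the filter in mRNA. In 4EHP-null 3 were higher, among them RMRP (6.67) and RPPH1 (6.35), and 0 were lower, and without replicate 2 none was called. In GIGYF1/2-null mRNA none was called with edgeR. In footprint libraries 6 of 21 were higher in 4EHP-null, with RNU12 at 2.22 and SNORD17 at 1.54, and 1 in GIGYF1/2-null. Summed, they were at 2125 and 1310.3 CPM in the WT footprint libraries and 2051 and 1759 in 4EHP-null, groups that overlapped, as did those of the 64 histone genes not described as polyadenylated.

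Against WT, the list genes whose calls held with each library of the comparison left out in turn were MCM2, POLA1, DNAJC9, H3F3A and H2AFY2 in 4EHP-null mRNA, CPSF3, ERI1, ORC1 and POLA2 in GIGYF1/2-null mRNA, and RNU12 and SNORD17 in 4EHP-null footprints. Every other call of a named list gene against WT, that of POLA1 footprints in 4EHP-null included, was lost without at least 1 library.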

How the data were processed

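The authors deposited raw read counts per gene symbol and a gene length in bases for 6 RNA-seq and 6 Ribo-seq libraries. Per the submitters' processing notes, Bowtie2, TopHat2, edgeR and hg19 were used, while for the counting tool, annotation, strand setting and handling of reads that match several genes the labels give nothing (not given in the sources used here). The authors' comparison tables hold log2 fold changes and p-values per the file headers. The authors' deposited TE tables also hold a footprint-to-mRNA ratio per group and a dispersion score, neither of which was tested.

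Counts were fitted in R 4.3.3 with edgeR 4.0.16 (filterByExpr, TMM within an assay, quasi-likelihood F-test, two-sided, Benjamini-Hochberg adjusted p under 0.05 over all genes tested), 3 genotypes sharing 1 spread. The tests were 15637 genes in RNA-seq, 14722 in Ribo-seq, 13257 for the interaction of genotype and assay and 17074 for footprints against mRNA, the last with TMM over 12 libraries. Alternatives were other scaling, no filter, DESeq2 1.42.0, the replicate block and leaving out each library.

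Named genes were the top 3 per class and assay, up to 4 called per direction, HIST3H3, HIST4H4, the testis-limited genes and SLBP, and up to 2 per direction of each list. The lists were 3′ end processing, the histone locus body, translation and decay, chaperones and import, replication-independent histones, S-phase genes, other RNAs without a poly(A) tail, and the 9 genes described as polyadenylated. The genes and lists were chosen with earlier results of these data known. All 73 symbols matched a RefSeq gene. Values of a cell type marker and of lower calls among S-phase genes in 4EHP-null mRNA are not reported here.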

Additional observations from a re-analysis of the deposited data

How the results depend on the processing

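Depth limits the mRNA results, since 18 to 29 of the 73 genes had at least 10 counts in 5 of the RNA-seq libraries and 43 in 4EHP-null replicate 2, while counting error is small for footprints. With 2 libraries a group, leaving 1 out leaves a lone library that is assumed to vary like the others. Shared reads between copies were not separable, and the poly(A) state of the libraries was not measured.

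The number of histone genes called was 10 for mRNA in 4EHP-null against WT, and 33 with no filter on low counts, 24 with a replicate block and 1 to 35 with each library left out in turn. For mRNA in GIGYF1/2-null against WT the number called was 2, and 10 with no filter and 5 with the block. It was 4 when only the genotypes compared were fitted, where 1801 of 15480 genes were called. Between the null lines it was 5 in mRNA, and 28, 17 and 3 in the same order, with 3 to 37 when a library was left out. In footprints the number called was 0 for 4EHP-null against WT, and 1 with no filter and 2 with the block. It was 1 with only the genotypes compared, where 769 of 14176 genes were called. It was 0 for GIGYF1/2-null, and 1 with no filter, 1 in DESeq2 and 4 with the block, HIST1H1D among them (0.67, edgeR, adjusted p = 8.5e-05). Between the null lines it was 4, and 10, 8 and 15 in that order. It was 2 with only the genotypes compared, where 1304 of 14545 genes were called. The median change there was -0.02 to 0.45 when a library was left out. The number called for the difference between assays in 4EHP-null, 0, became 33 with no filter and 14 with the block. Its median was -3.51 to 0.17 when a library was left out. In GIGYF1/2-null, also 0, it became 4 with no filter and 1 with the block, and between the null lines, again 0, it became 31, 11 and 0 to 26. Footprints against mRNA gave 31 in each genotype when the filter was applied in both assays, because fewer genes were tested. The cause of the other changes was not tested. Over all genes the main, unfiltered and blocked fits called 2048 of 15637, 2907 of 20769 and 3571 in 4EHP-null mRNA. In that order they called 1868, 2615 and 3224 in GIGYF1/2-null mRNA, and 3820, 4513 and 5362 between the null lines. In footprints they called 448, 1166 and 1830, then 307, 1135 and 1747, then 1587, 2405 and 3291. For the difference between assays they called 13, 166 and 88, then 6, 84 and 30, then 24, 194 and 114.

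The log2 ratio of summed mRNA in 4EHP-null to WT was 0.42, 2.53 without the genes described as polyadenylated, and -0.32 to 0.92 when a library was left out. In GIGYF1/2-null it was 0.64, 0.70 with library totals, 0.84 without those genes and 0.59 to 0.69. Between the null lines it was 0.22, -1.68 without those genes and -0.28 to 0.96. In summed footprints the ratios were -0.06, 0.20 and 0.26, with ranges of -0.31 to 0.16, 0.13 to 0.28 and 0.041 to 0.52. The log2 ratio of summed footprints to mRNA was 9.28, 8.80 and 8.85 in WT, 4EHP-null and GIGYF1/2-null, and 12.76, 10.18 and 12.13 without those genes, with ranges of 9.20 to 9.36, 8.31 to 9.55 and 8.80 to 8.89.

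Without 4EHP-null RNA-seq replicate 2 the direction turned for HIST1H2AH (0.48, range with each library left out -3.29 to 0.48) and HIST1H4E (0.26, range -3.75 to 0.26) between the null lines in mRNA, and for RMRP (-1.07, range -1.07 to 7.67) and RPPH1 (-0.59, range -0.59 to 7.35) against WT. Of the other values of single genes, 849 kept direction and side of the threshold, 187 lost a call and 1 gained one, over all alternatives. Same-numbered libraries share a number only. Their deviations from the group means had correlations of 0.0701 to 0.180 in RNA-seq and 0.149 to 0.314 in Ribo-seq. No label ties a number to a batch, and with 2 libraries a group the block was kept as an alternative.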
